A study of Mus musculus with 6 samples.

Results

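The 7 genes considered here belong to the MLX network of glucose-responsive transcription and its targets, and they were followed in MIN6 cells after chronic epinephrine exposure. They were taken by symbol from the deposited table, namely Mlxipl, Mlxip, Mlx, Txnip, Arrdc4, Pklr and Tkt, which gave 7 of the 22298 genes listed. MIN6 is a mouse insulinoma line that secretes insulin, and RNA was sequenced from 3 control samples and 3 samples of chronic epinephrine. The study's methods give the concentration as 100 nM, and its scheme has 3 days of epinephrine followed by 2 days without it. Neither names the day on which RNA was collected, so whether these samples had passed through withdrawal is not given in the sources used here. Controls and exposed cells are the same cell line, and no separate cultures are named in the labels. The study's methods describe its data in general as biological replicates, with n counting independent samples per group. They do not say how the cultures for sequencing were kept apart. The p-values therefore measure the spread between these samples, part of which may be technical.

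ChREBP (Mlxipl) and MondoA (Mlxip) are related transcription factors that move into the nucleus and activate genes when glucose 6-phosphate accumulates, and both bind DNA as a pair with MLX (Mlx). Their best known targets in beta cells include Txnip, whose protein TXNIP binds thioredoxin, restrains glucose uptake and favors beta-cell death when glucose stays high. Arrdc4 encodes an alpha-arrestin of the TXNIP family and is usually described as a target of the same factors. Pklr encodes the liver type of pyruvate kinase, and Tkt encodes transketolase, an enzyme of the pentose phosphate pathway.

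Between 15017065 and 17457583 expected counts were assigned to genes in each control, and between 15256957 and 18127171 in each epinephrine sample. A count of 0 allows up to 3 counts, which is 0.165 to 0.200 CPM (counts scaled to a common library size), and this covers counting error only. The line was checked against its defining genes. The 12 beta-cell markers summed to 51560 to 68810 CPM in the controls and 62020 to 64140 CPM after epinephrine, with Ins1 and Slc2a2 passing as lower. Every epinephrine sample lay below every control for Ins1, Slc2a2, Pdx1, Nkx6-1, Neurod1 and Slc30a8, and above every control for Iapp. The groups overlapped for the rest, Ins2 among them. Of all genes tested, 13% lay below and 14.3% above in this way. The 6 alpha-cell markers summed to 1018 to 1549 CPM and to 1959 to 2158 CPM, with Gcg passing as higher, and the 10 leukocyte markers to 1.14 to 3.30 CPM and to 3.31 to 4.33 CPM. Of the latter Cd68 passed as higher (0.343 to 0.712 CPM in the controls and 2.13 to 3.38 CPM after epinephrine), whereas Csf1r, the other one tested, stood at 0.457 to 1.88 CPM and 0.593 to 0.953 CPM, and Ptprc, which marks all leukocytes, at no more than 0.119 CPM. The 8 fibroblast markers summed to 23.2, 1.77 and 8.64 CPM in controls 1, 2 and 3 and to 19.8, 13 and 1.92 CPM in epinephrine 1, 2 and 3. No exocrine marker passed the filter on low counts, and 4 of 10 (Prss2, Cpa1, Pnlip and Cel) were at 0 in every sample. Control 1 stood apart from the other libraries. Deviations from a mean of 3 samples are negatively related by construction, and pairs of epinephrine samples gave correlations across genes of -0.562 to -0.431. Controls 2 and 3 deviated together (0.333) and opposite to control 1 (-0.815 and -0.818), and without control 1 2798 genes passed a false discovery rate (FDR, by edgeR) of 0.05 in place of 335. Hepatocyte transcripts differed between the libraries too, and the 18 markers other than Ttr, which islet cells also express, summed to 39.0, 117 and 255 CPM in controls 1, 2 and 3 and to 26.4 to 30.6 CPM after epinephrine, with none at 0 in every sample and Serpina1c passing as lower. Albumin was at 0.194, 33.9 and 82.3 CPM in these controls and at 0.296 to 0.448 CPM in the epinephrine samples. The part of these other cell type transcripts in the results was not tested, and in bulk samples fewer cells of a type and less RNA per cell cannot be told apart.

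The sequences upstream of the genes are shown because MLX factors act through a short element, the carbohydrate response element (ChoRE), which is a pair of E-box-like sites 5 bases apart. They were taken from RefSeq on GRCm38.p6, which had an entry for each of the 7 genes, and cover the 250 bases before the transcription start, numbered back from -1. Motifs were searched on both strands, and they were the E-box CACGTG, an inverted ChoRE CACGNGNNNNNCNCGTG, a direct ChoRE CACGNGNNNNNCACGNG and the CCAAT box CCAAT, which NF-Y binds. Letters of the forms can overlap, since an E-box may be 1 of the paired sites of a ChoRE and 7 promoters matched both ChoRE forms at once. Of 32851 promoters of the same length in the RefSeq table, the inverted form was found in 13 (0.0396%) and the direct form in 15 (0.0457%). The E-box was found in 6.02% and a CCAAT box in 33.8%. The 2 full windows are those of Txnip, with 1 direct ChoRE and 2 CCAAT boxes, and of Arrdc4, with 1 E-box and 6 CCAAT boxes, which are the alpha-arrestin genes whose levels lay on opposite sides of the controls. Txnip lies on chr3:96557707-96557956 (plus strand) and Arrdc4 on chr7:68749239-68749488 (minus strand), and capitals mark the matched motifs.
Txnip: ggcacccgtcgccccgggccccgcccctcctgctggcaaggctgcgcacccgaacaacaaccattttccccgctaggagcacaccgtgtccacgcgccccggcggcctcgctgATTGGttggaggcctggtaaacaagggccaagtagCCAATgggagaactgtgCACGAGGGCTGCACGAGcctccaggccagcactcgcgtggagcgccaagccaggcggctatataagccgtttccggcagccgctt
Arrdc4: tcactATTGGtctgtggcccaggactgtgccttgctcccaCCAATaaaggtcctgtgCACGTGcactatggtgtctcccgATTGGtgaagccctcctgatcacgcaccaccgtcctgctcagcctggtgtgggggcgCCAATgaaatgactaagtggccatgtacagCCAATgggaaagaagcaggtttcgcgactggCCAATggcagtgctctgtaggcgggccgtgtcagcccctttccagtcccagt

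The direct ChoRE of Txnip spans positions -85 to -69 and lies between a CCAAT box at -102 to -98 and the gene. In Arrdc4 the E-box spans -193 to -188, and no paired site was found at the searched spacing. A CCAAT box was present at least 4 times in 0.840% of all promoters, Arrdc4 among them. Pklr has 2 RefSeq starts, and the downstream one, which belongs to the liver form, carried the inverted ChoRE at -170 to -154. Stretches of 57 bases are shown for Pklr (chr3:89136433-89136489, plus strand) and, for the E-boxes near the factors' own genes, Mlx (chr11:101087230-101087286, plus strand) and Mlxipl (chr5:135089772-135089828, plus strand).
Pklr: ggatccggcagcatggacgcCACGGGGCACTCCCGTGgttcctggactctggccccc
Mlx: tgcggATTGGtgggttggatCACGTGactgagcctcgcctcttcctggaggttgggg
Mlxipl: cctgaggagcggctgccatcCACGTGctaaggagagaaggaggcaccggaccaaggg

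The E-box of Mlx spans -40 to -35 and that of Mlxipl, upstream of the first of its 2 starts, spans -98 to -93. None of the motifs was matched at the second start of Mlxipl or at the upstream start of Pklr. Mlxip held 2 CCAAT boxes and none of the other motifs, and Tkt held none of the motifs. These matches describe letters in a window, and no match says only that these letters are not in it. Either ChoRE form was carried by 20 genes, of which 11 were tested for expression. None passed an FDR of 0.05 by edgeR or DESeq2, beside 2.63% and 5.23% of all genes, and 2 of the 11 had an unadjusted p under 0.05 by edgeR (Txnip and Fam124a), beside 17.1%. The log2 fold change was above 0 in 5 of them and below 0 in 6, with a median of -0.057, beside -0.0023 over all genes tested.

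All 7 genes passed the filter on low counts and were tested with edgeR's quasi-likelihood test, adjusted over all 12747 genes tested (FDR). Arrdc4 rose after chronic epinephrine and was the only one of the 7 past an FDR of 0.05. Over all genes tested, 2.63% passed, 2.02% as higher and 0.612% as lower. None of the 7 changed by 2-fold or more, where 0.722% of all genes passed both thresholds. In 5 of the 7 no epinephrine sample fell within the range of the controls, Arrdc4 and Mlx as higher and Txnip, Mlxipl and Pklr as lower, beside 14.3% of all genes as higher and 13% as lower. An unadjusted p under 0.05 was reached by 4 of the 7 (Arrdc4, Mlxipl, Txnip and Mlx) and by 2179 of the 12747 genes (17.1%). The median log2 fold change of the 7 was -0.26, with 3 higher and 4 lower.

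**Figure D1:**
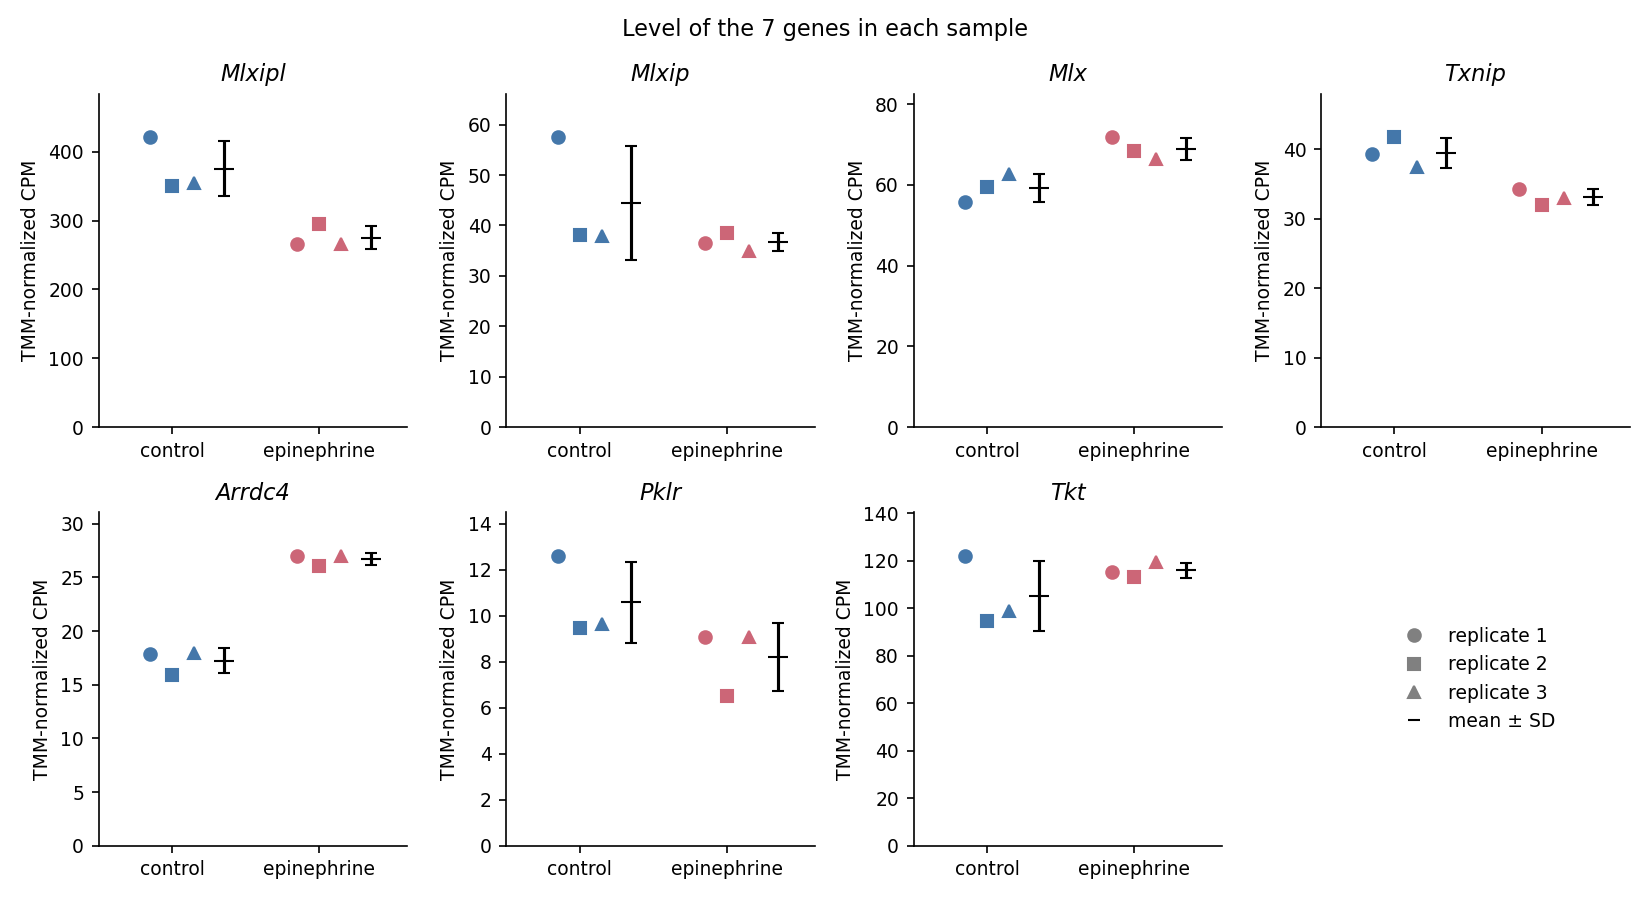
Level of each gene in TMM-normalized CPM (vertical axes, from 0) in the control and chronic epinephrine samples, with 1 point a sample, its shape the replicate, and bars for the mean ± SD of 3. Arrdc4 lay at 15.9 to 18.0 CPM in the controls and 26.1 to 27 CPM after epinephrine, and Mlxip and Tkt overlapped between the groups.

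The factors were considered first. Levels of different genes were compared only as FPKM, which is scaled to transcript length. The mRNA of ChREBP was by far the most abundant, and Mlxipl averaged 139 FPKM over the 6 samples, above 97% of the genes tested. Its partner Mlx averaged 35.1 FPKM and Mlxip 5.65 FPKM. The ranges of the 3 genes did not overlap in any sample.

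Mlxipl (ENSMUSG00000005373, chromosome 5 of GRCm38 from 135089890 to 135138382) was covered by 4017 to 6507 counts a sample. Its normalized level was 421, 350 and 354 CPM in controls 1, 2 and 3 and 266, 295 and 266 CPM in epinephrine 1, 2 and 3. Every epinephrine sample lay below every control, and control 1 was the highest. The means were 375 ± 40.1 and 275 ± 16.8 CPM (SD, n = 3), and the log2 fold change was -0.45 (SE 0.10, FDR 0.0636 by edgeR), or 0.734-fold. By exact permutation of the samples (two-sided) p was 0.1, which is the smallest that 3 samples against 3 allow. DESeq2 gave a log2 fold change of -0.45 with an FDR of 0.00308, where it called 5.23% of its genes, and edgeR without control 1 gave -0.35 with an FDR of 1.14e-05, where it called 21.6%. Hepatocytes express Mlxipl as well, and both Mlxipl and the summed hepatocyte markers without Ttr (39.0 to 255 CPM against 26.4 to 30.6 CPM) were lower in every epinephrine sample than in every control. In control 1 most of this sum was Serpina1b, Ambp, Serpina1c and Serpina1a (15.2, 9.13, 8.16 and 4.53 CPM). After epinephrine these stood at 12.2 to 14.1, 4.83 to 5.72, 4.10 to 4.71 and 1.66 to 3.47 CPM. Of the other markers, Alb, Hpx and Apoa2 were lower in control 1 than in every epinephrine sample, and Cyp2e1 and Apoh were higher. The rest of them lay within the epinephrine range in control 1. Among the controls Mlxipl was highest in control 1, where the summed markers were lowest. The part of hepatocyte transcripts in the difference was not tested. The table does not separate the alpha and beta isoforms of ChREBP, and 3.46% of the gene's 50-base windows were shared with other genes.

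Mlxip (ENSMUSG00000038342, chromosome 5 from 123394798 to 123457932) stood at 57.5, 38.1 and 37.9 CPM in the controls and at 36.5, 38.6 and 35 CPM after epinephrine. Only control 1 was apart from the rest, and the groups overlapped. The log2 fold change was -0.28 (SE 0.16, FDR 0.433 by edgeR), and it was -0.048 (FDR 0.704) without control 1.

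Mlx (ENSMUSG00000017801, chromosome 11 from 101087277 to 101092207) stood at 55.8, 59.5 and 62.7 CPM in the controls and at 71.9, 68.5 and 66.4 CPM after epinephrine. Every epinephrine sample lay above every control. The log2 fold change was 0.22 (SE 0.08, FDR 0.235 by edgeR), and without control 1 it was 0.18 (FDR 0.0412). The counts of Mlx were not whole numbers in any sample. Its exons overlap Psmc3ip on the other strand, with which 15.8% of its 50-base windows were shared, and the strand setting of the libraries is not given in the sources used here. Psmc3ip, which encodes a protein of meiotic recombination and was looked up after the values were seen, was at 7.32 to 16.1 CPM in the controls and 14.2 to 14.9 CPM after epinephrine.

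A ratio of 2 genes within a sample needs no scaling between samples. The pair was chosen after Mlxipl was seen below and Mlx above every control, so the ratio had to separate the groups, and it is given as a description with no test. Mlxipl had 7.55, 5.88 and 5.65 counts for each count of Mlx in controls 1, 2 and 3. It had 3.70, 4.30 and 4 in epinephrine 1, 2 and 3. The mean ratio of Mlxipl to Mlx counts, not scaled for transcript length, went from 6.36 ± 1.04 to 3.999 ± 0.303 (SD, n = 3). That is a log2 difference of -0.66, and of -0.53 without control 1.

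The alpha-arrestin targets were considered next, since Txnip and Arrdc4 are usually described as moving together with glucose. Here the level of Arrdc4 was higher and that of Txnip lower in every epinephrine sample. Arrdc4 (ENSMUSG00000042659, chromosome 7 from 68736995 to 68749241) was covered by 276 to 466 counts a sample. It stood at 17.9, 15.9 and 18.0 CPM in the controls and at 27, 26.1 and 27 CPM after epinephrine. The gap between the groups was wider than the range within either. The means were 17.3 ± 1.14 and 26.7 ± 0.537 CPM (SD, n = 3), and the log2 fold change was 0.63 (SE 0.10, FDR 0.0129 by edgeR), or 1.55-fold. It had the rank of 128 by p among the genes tested. DESeq2 gave 0.63 (FDR 4.8e-05). By exact permutation of the samples (two-sided) p was 0.1. Fits on 5 of the 6 samples put the log2 fold change between 0.57 and 0.66, and the call by edgeR held without control 1 (FDR 3.9e-06) or control 3 (FDR 0.0413). It did not hold without control 2 (FDR 0.0633) or without epinephrine 1, 2 or 3 (FDR 0.103, 0.0848 and 0.0905). Of all genes 1.48% were called without control 3, 0.839% without control 2, 0.364% without epinephrine 1 or 2 and 0.593% without epinephrine 3. None of the windows of Arrdc4 were shared with other genes, and no other exon overlaps it.

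Txnip (ENSMUSG00000038393, chromosome 3 from 96557957 to 96561883) was covered by 500 to 731 counts a sample. It stood at 39.4, 41.8 and 37.5 CPM in the controls and at 34.3, 32.1 and 33.1 CPM after epinephrine. Every epinephrine sample lay below every control, by a smaller margin than for Arrdc4. The means were 39.5 ± 2.15 and 33.1 ± 1.12 CPM (SD, n = 3), and the log2 fold change was -0.26 (SE 0.09, FDR 0.180 by edgeR), or 0.838-fold. The call was not made with DESeq2 (FDR 0.170), and it was made without control 1 (log2 fold change -0.26, FDR 0.0120). With each other sample left out the FDR was 0.201 to 0.493. An antisense gene, Gm15441, overlaps Txnip and shares 15.7% of its windows, and it was not analysed here.

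Within each sample, Arrdc4 had 0.454, 0.382 and 0.479 counts for each count of Txnip in controls 1, 2 and 3. It had 0.789, 0.815 and 0.818 in epinephrine 1, 2 and 3. The ratio was 0.438 ± 0.0506 in the controls and 0.807 ± 0.0159 after epinephrine (SD, n = 3), which is 1.85-fold, or a log2 difference of 0.89 (0.92 without control 1). This pair too was chosen after its genes were seen on opposite sides of the controls, so the separation follows from the choice and was not tested. As FPKM, Arrdc4 lay below Mlxip in every control (4.54 to 5.04 against 5.28 to 8.11) and above it in every epinephrine sample (7.23 to 9.20 against 4.77 to 5.35). Its FPKM was highest in epinephrine 2, where the length implied by count and FPKM was 2794 bases, against 3520 to 3720 bases in the other samples.

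**Figure D2:**
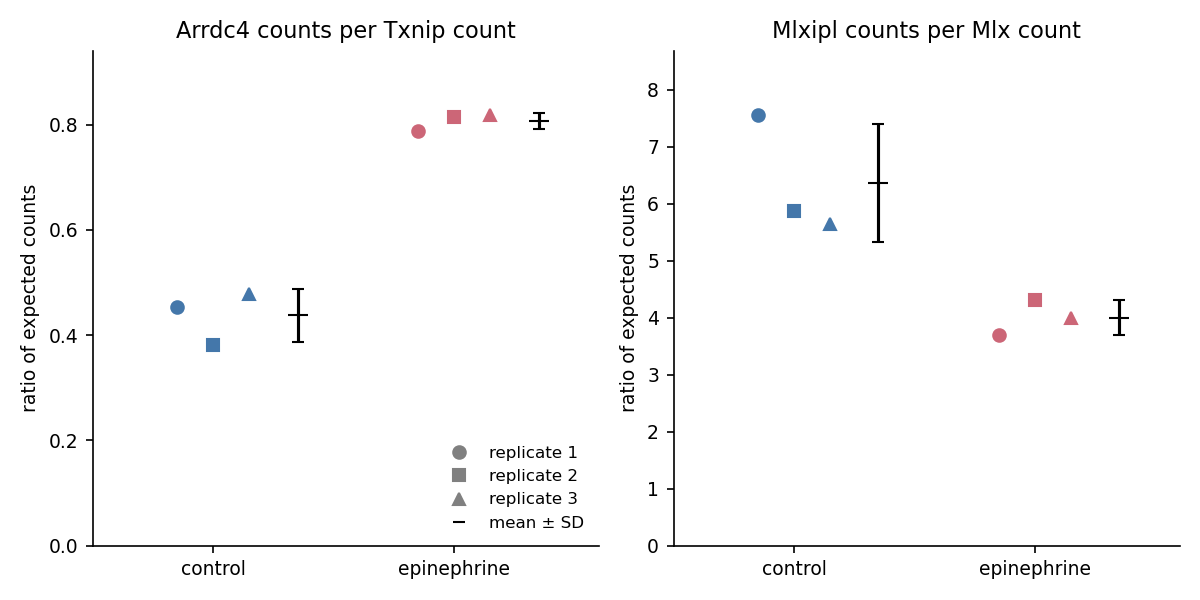
Expected counts of Arrdc4 for each count of Txnip (left) and of Mlxipl for each count of Mlx (right) in each sample, with 1 point a sample, its shape the replicate, and bars for the mean ± SD of 3. The left ratio was 0.382 to 0.479 in the controls and 0.789 to 0.818 after epinephrine, and the right ratio was 5.65 to 7.55 and 3.70 to 4.30.

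The metabolic targets showed no call. Pklr (ENSMUSG00000041237, chromosome 3 from 89136142 to 89146784) had the lowest counts, 116 to 195 a sample. It stood at 12.6, 9.49 and 9.64 CPM in the controls and at 9.07, 6.50 and 9.06 CPM after epinephrine. The groups did not overlap, but control 2 and epinephrine 1 differed by less than the spread within either group. The log2 fold change was -0.37 (SE 0.18, FDR 0.340 by edgeR), and it was -0.23 (FDR 0.288) without control 1 and -0.22 (FDR 0.703) without epinephrine 2. In FPKM the same gene looked different, at 9.69, 3.41 and 6.03 in the controls and 3.23, 2.95 and 3.18 after epinephrine. On log2(FPKM + 1) the difference was -0.75 and on log2(FPKM + 0.1) it was -0.89 (limma FDR 0.237 and 0.226).

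The length that links count and FPKM was computed for each sample. For Pklr it was 1342, 2785 and 1589 bases in controls 1, 2 and 3 and 2800, 2165 and 2828 bases in epinephrine 1, 2 and 3. The annotation lists 3 protein-coding transcripts of Pklr, from 349 to 2902 bases. A ratio of 2.11 between the longest and the shortest length put Pklr among 27 of 10337 genes with a ratio over 2 (0.261%, genes of at least 2 FPKM in every sample). The ratio was 1.33 for Arrdc4 and at most 1.06 for the other 5 genes. The counts of Pklr were not whole numbers, and 20.5% of its windows were shared with Hcn3, a channel gene on the other strand that was looked up after the values were seen and stood at 17.9 to 25.9 CPM in the controls and 17.3 to 20.6 CPM after epinephrine. Hepatocytes express Pklr strongly, and Pklr too was lower in every epinephrine sample, as was the sum of the hepatocyte markers without Ttr. Among the controls Pklr was highest in control 1, where that sum was lowest and came mostly from the Serpina1 genes and Ambp. The part of hepatocyte transcripts was not tested.

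**Figure D3:**
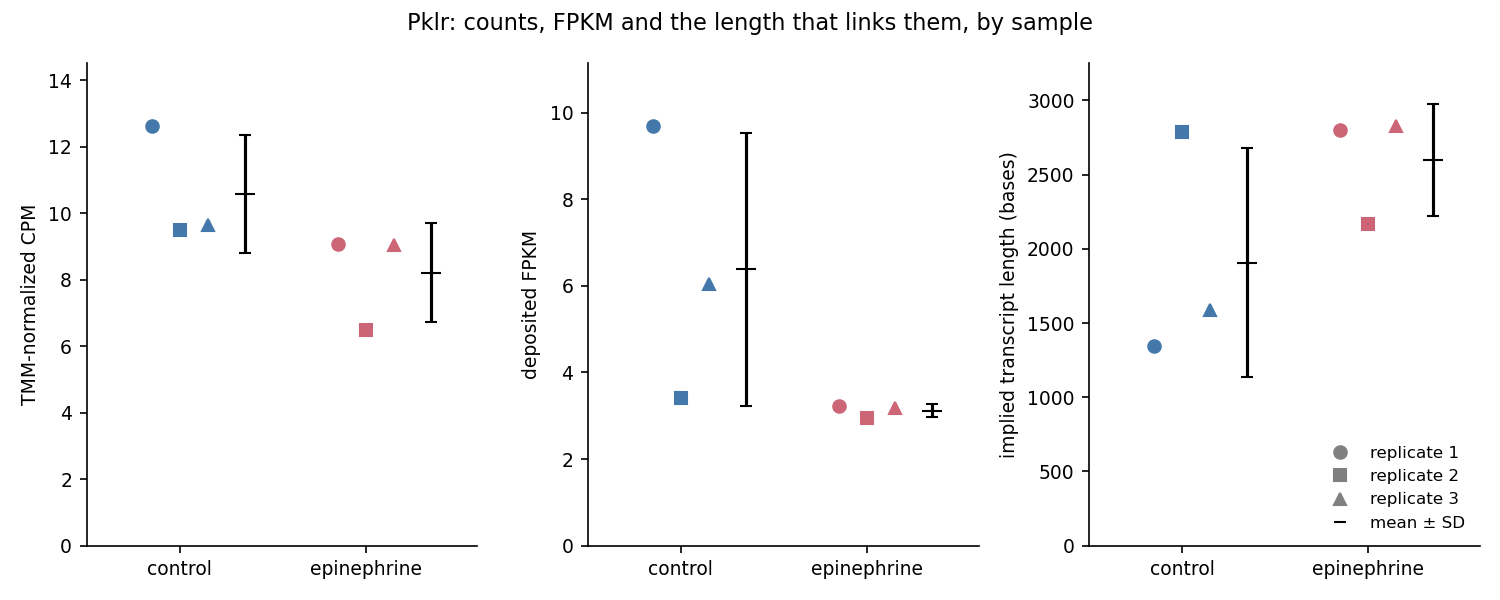
Pklr in each sample as TMM-normalized CPM (left), deposited FPKM (middle) and the transcript length in bases that links count and FPKM (right), with bars for the mean ± SD of 3. Controls 1 and 3, at 1342 and 1589 bases, had the shortest lengths and the highest FPKM, and control 2, at 2785 bases, lay near the epinephrine samples in FPKM.

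Tkt (ENSMUSG00000021957, chromosome 14 from 30548359 to 30574720) stood at 122, 94.7 and 98.8 CPM in the controls and at 115, 113 and 119 CPM after epinephrine. Control 1 was the highest of all 6 samples and controls 2 and 3 the lowest, so the groups overlapped. The log2 fold change was 0.14 (SE 0.11, FDR 0.561 by edgeR). Without control 1 it was 0.26 (FDR 0.000923), and with each other sample left out it was 0.061 to 0.16 (FDR 0.710 to 0.809). In FPKM the order of the targets was Tkt (34.5 on average), Txnip (12.9), Arrdc4 (6.42) and Pklr (4.75) over all 6 samples. The group averages of the last 2 changed places. In the controls Arrdc4 averaged 4.84 ± 0.265 and Pklr 6.38 ± 3.15 FPKM (SD, n = 3), and their ranges overlapped. After epinephrine they averaged 8.01 ± 1.05 and 3.12 ± 0.149 FPKM (SD, n = 3). Pklr lay above Arrdc4 in controls 1 and 3, where the implied length of Pklr was shortest (1342 and 1589 bases). In control 2 it lay below Arrdc4 (3.41 against 4.54 FPKM). Tkt did not differ from Mlx beyond the spread in the controls (33.4 ± 5.25 and 32.4 ± 1.33 FPKM), nor Pklr from Mlxip (6.38 ± 3.15 and 6.23 ± 1.63 FPKM).

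Control 1 decided several of these values. Without it, Arrdc4, Mlx and Tkt passed as higher and Txnip and Mlxipl as lower, 5 of the 7, where 12.1% of all genes passed as higher and 9.46% as lower. With all 6 samples 1 of the 7 passed, and without any other sample at most 1 did. The direction of all 7 was the same in each of the 15 alternatives.

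**Figure D4:**
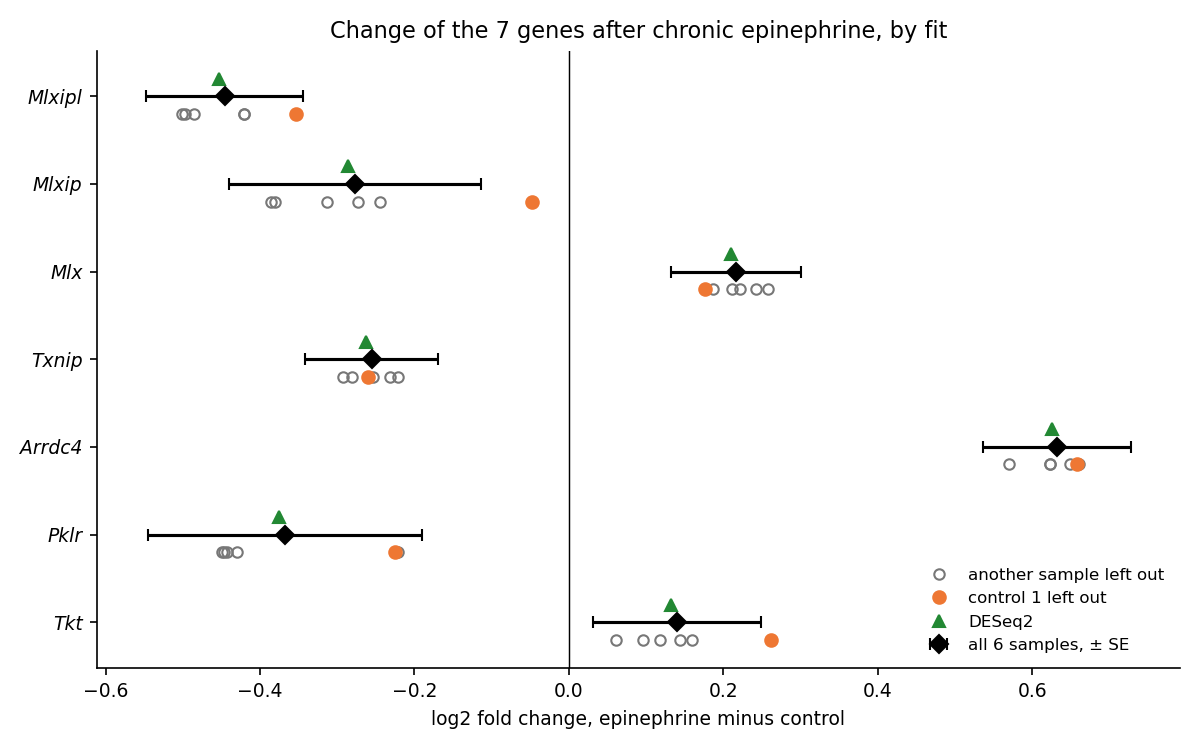
Log2 fold change of each gene (horizontal axis, epinephrine minus control) with all 6 samples (diamond, ± SE), by DESeq2 (triangle) and with 1 sample left out (circles, control 1 filled). Arrdc4 stays between 0.57 and 0.66, whereas Mlxip moves from -0.28 to -0.048 without control 1.

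Genes around the 7 were described from 10 lists, whose counts stand against 2.63% of all genes called by edgeR, 5.23% by DESeq2 and 17.1% at an unadjusted p under 0.05. The rest of the MLX and MAX network, which holds the dimer partners and repressors that share E-boxes with MLX and MYC, had no call by edgeR or DESeq2 among 9 tested genes, with 2 at an unadjusted p under 0.05 (Myc and Mxd4) and a median log2 fold change of -0.034. Max, its most abundant gene, showed 0.028 on the log2 scale (SE 0.09, FDR 0.900 by edgeR). The other alpha-arrestins had no call by either tool among 3 tested genes, with 1 at an unadjusted p under 0.05. That was Arrdc3, the most abundant, which stood at 77.7, 92.9 and 89.5 CPM in the controls and at 101, 107 and 105 CPM after epinephrine (log2 fold change 0.27, SE 0.09, FDR 0.189 by edgeR).

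Other genes that ChREBP is known to activate showed no common direction. Of 18 tested, 9 were higher and 9 lower, with a median log2 fold change of 0.000825, and 1 passed as lower. That was Slc2a2, the gene of the glucose transporter GLUT2, which fell from 589 ± 38.5 to 348 ± 11.6 CPM (SD, n = 3), and the log2 fold change was -0.76 (SE 0.09, FDR 0.00434 by edgeR). Hepatocytes express Slc2a2 as well, and it was lower in every epinephrine sample, as was the sum of the hepatocyte markers without Ttr. Among the controls (623, 597 and 547 CPM) it was highest in control 1, where that sum was lowest and came mostly from the Serpina1 genes and Ambp. The part of hepatocyte transcripts was not tested. Acly, the most abundant and the gene of ATP citrate lyase, stood at 4794, 3380 and 3133 CPM in the controls and at 2988, 2839 and 2969 CPM after epinephrine (log2 fold change -0.36, SE 0.15, FDR 0.279 by edgeR). Its groups did not overlap, and control 1 was far above the rest. Fgf21 and G6pc, secreted and gluconeogenic targets in liver, were below the filter.

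Among the transporters and hexokinases that set the glucose 6-phosphate level, Slc2a1, the gene of GLUT1, whose uptake TXNIP restrains, rose. It stood at 106, 84.5 and 88.9 CPM in the controls and at 135, 140 and 134 CPM after epinephrine (log2 fold change 0.55, SE 0.10, FDR 0.0294 by edgeR), and every epinephrine sample lay above every control. With Slc2a2 lower, 1 of 9 tested genes passed in each direction. In FPKM, Slc2a2 averaged 93.8 and Slc2a1 38.1. The call of Slc2a2 was lost without epinephrine 1, 2 or 3 (FDR 0.0577, 0.0522 and 0.0516), and that of Slc2a1 was lost without any sample other than control 1 (FDR 0.10 to 0.19) and with the replicate number as a block (FDR 0.0759, where 1.4% of all genes were called). G6pc2, the islet glucose-6-phosphatase and the most abundant, showed -0.15 on the log2 scale (SE 0.12, FDR 0.556 by edgeR). It stood at 3872, 5079 and 4977 CPM in controls 1, 2 and 3 and at 4132 to 4219 CPM after epinephrine. Control 1 thus lay below every epinephrine sample and controls 2 and 3 above.

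The enzymes downstream did not pass. The 17 glycolytic genes had no call by edgeR, with 3 at an unadjusted p under 0.05 and 1 call by DESeq2 (Aldoc, lower), and a median log2 fold change of 0.0062. Gapdh, the most abundant, showed 0.20 on the log2 scale (SE 0.08, FDR 0.262 by edgeR). Pkm, the gene of the other pyruvate kinase, averaged 1208 FPKM beside 4.75 FPKM for Pklr, and its log2 fold change was 0.0062 (SE 0.09, FDR 0.979 by edgeR). The pentose phosphate genes other than Tkt had no call by either tool among 7 tested, with 1 at an unadjusted p under 0.05 (H6pd) and a median of -0.020. Taldo1, which works beside transketolase and was the most abundant, showed 0.011 on the log2 scale (SE 0.08, FDR 0.963 by edgeR). Tktl1 and Tktl2, the paralogs of Tkt, were at 0 counts in every sample.

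On the side of the TXNIP protein, the thioredoxin system had no call by edgeR among 15 tested genes, with 3 at an unadjusted p under 0.05 (Txn2, Txnrd2 and Glrx) and 1 call by DESeq2 (Txn2, higher). Its median log2 fold change was -0.014, and Prdx4, the most abundant, showed 0.32 (SE 0.20, FDR 0.467 by edgeR). Prdx4 stood at 143, 240 and 267 CPM in controls 1, 2 and 3 and at 264 to 274 CPM after epinephrine, with control 1 far below the rest. The inflammasome genes, to which TXNIP is linked through NLRP3, had no call by either tool among 5 tested, with 1 at an unadjusted p under 0.05 (Gsdmd), and their median was -0.18. Nlrp3 itself had no counts in 5 of the 6 samples, and Nek7, the most abundant, showed -0.18 on the log2 scale (SE 0.10, FDR 0.399 by edgeR). The 14-3-3 proteins, which hold ChREBP in the cytosol, had no call by either tool among 7 tested, with 1 at an unadjusted p under 0.05 (Ywhah). Their median was -0.041, and Ywhae, the most abundant, showed -0.015 on the log2 scale (SE 0.08, FDR 0.942 by edgeR).

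Factors and enzymes known to act on Txnip made a list of 16 genes, and 2 of the 14 above the filter passed, both as higher, beside 2.02% of all genes. By DESeq2 Ern1, the sensor kinase IRE1 of the unfolded protein response, passed as well (log2 fold change 0.52, FDR 0.0358; 0.53 with an FDR of 0.113 by edgeR). An unadjusted p under 0.05 was reached by 7 of the 14, beside 17.1% of all genes, with Atf4, Atf5 and Ern1 higher and Foxo1, Prkaa1, Nedd4l and Nr1h2 lower. Atf4, a transcription factor of the stress response and the most abundant of the list, stood at 163, 198 and 208 CPM in the controls and rose to 349, 340 and 349 CPM after epinephrine (log2 fold change 0.87, SE 0.10, FDR 0.00581 by edgeR). Atf5, its relative, stood at 60.2, 49.4 and 55.2 CPM in the controls and at 83.6, 81.1 and 83.6 CPM after epinephrine (log2 fold change 0.59, SE 0.09, FDR 0.0147 by edgeR). The median over the list was -0.10, with 5 higher and 9 lower. The call of Atf4 was lost without epinephrine 1 or 2 (FDR 0.0577 and 0.0585), and that of Atf5 without any sample other than control 1 (FDR 0.0584 to 0.127). Without control 1, 4 genes passed in each direction, where 12.1% of all genes passed as higher and 9.46% as lower.

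**Figure D5:**
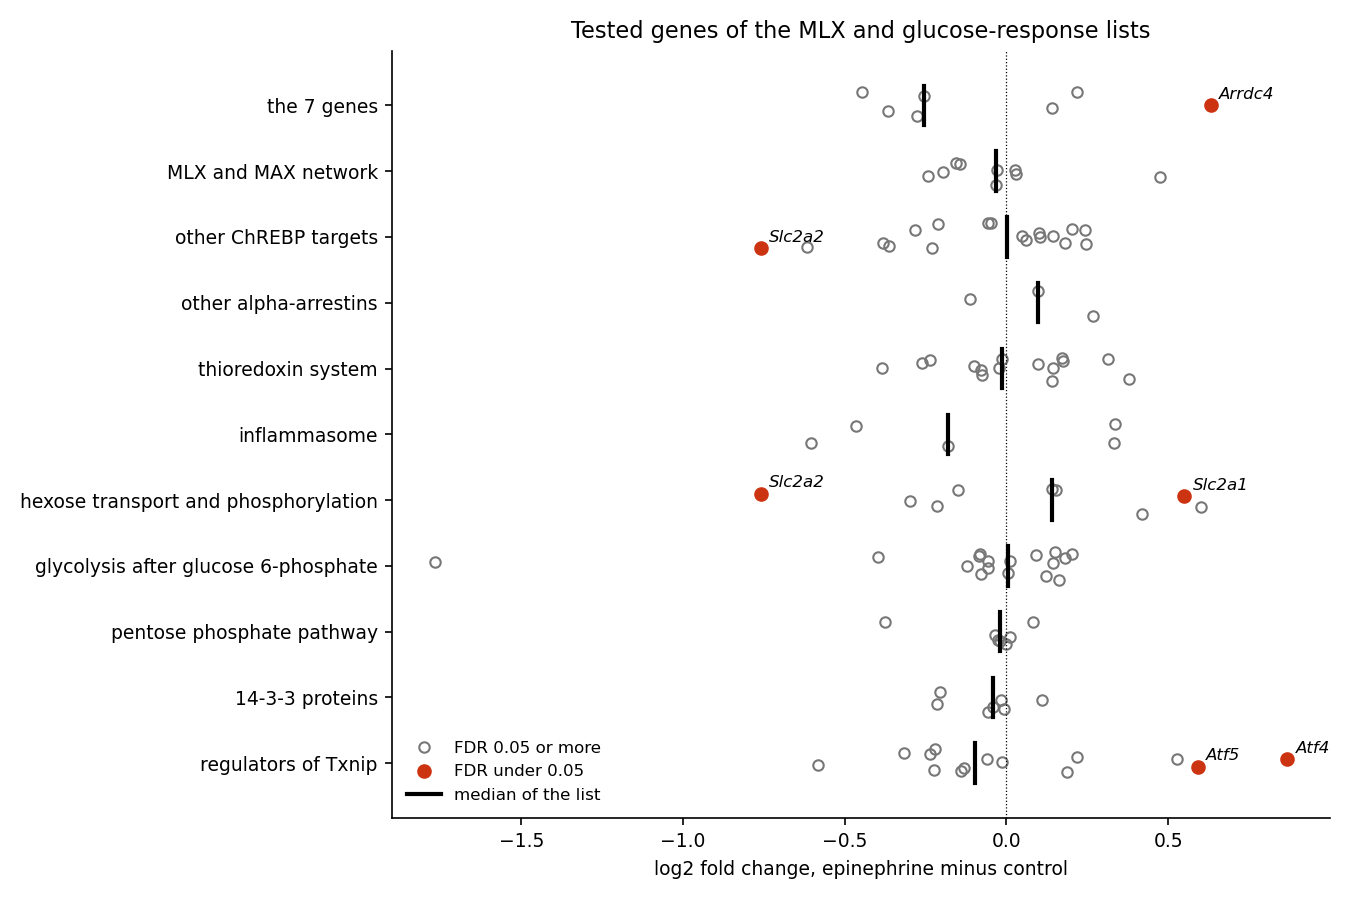
Log2 fold change (horizontal axis, epinephrine minus control) of each tested gene in the 7 and in 10 related lists, 1 point a gene, filled where the FDR was under 0.05, with a bar at the median of the list. The calls with all 6 samples were Arrdc4, Slc2a1, Atf5 and Atf4 as higher and Slc2a2, which stands in 2 lists, as lower.

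Genes with the most similar pattern were found by Pearson's r of log2 CPM over the 6 samples, among 9582 genes with a mean of at least 10 CPM. With so few samples in 2 groups, many genes come close to any pattern, and the values are a description. Nearest to Arrdc4 were Uap1l1, Pdyn, Ttyh1, Tsr1 and Mthfd2, with r of 0.996 to 0.998. Of these 3 passed an FDR of 0.05 by edgeR, all as higher, beside 2.02% of all genes tested (Ttyh1 with a log2 fold change of 1.17, Pdyn with 0.84 and Mthfd2 with 0.70). They were picked for likeness to a gene called higher, so calls in that direction follow from the choice. Pdyn encodes the opioid precursor prodynorphin and Mthfd2 a mitochondrial enzyme of one-carbon metabolism. Nearest to Txnip were Cdc5l, Scaper, Dcp2, Grip1 and Syt14, with r of 0.985 to 0.998, and none passed by edgeR (FDR 0.167 to 0.622).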

How the data were processed

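RNA of MIN6 cells (control, n = 3; chronic epinephrine, n = 3) was measured by RNA-seq. Per the labels, the genome build was GRCm38, and the aligner, counting tool and strand setting are not given in the sources used here. The authors deposited 1 table of 22298 genes with an expected count for each gene and sample, not normalized, of which 8.34% are not whole. The deposited FPKM values were scaled by the authors to transcript length and to the sample's total. Expected counts were rounded, filtered with filterByExpr (12747 genes kept), normalized by TMM and compared by quasi-likelihood (edgeR 4.0.16, R 4.3.3), with Benjamini-Hochberg adjustment (FDR). The SE is the size of the log2 fold change divided by the square root of F. DESeq2 1.42.0 and limma 3.58.1 (trend on log2 FPKM with 1 or 0.1 added) served as alternatives, beside other scalings, filters, a replicate block and each sample left out. Implied length is the expected count divided by FPKM and by the sample's total, rescaled to bases. Positions came from GENCODE M21, which held 22255 of the identifiers. Windows are all stretches of 50 bases in a gene's transcripts. The genes and lists were chosen with earlier results of these data known, and the motif forms with the promoters in view. Named are the 7 genes and, in each list, genes past an FDR of 0.05 and that of highest FPKM; for likeness, the 5 nearest to Txnip and to Arrdc4. Other list genes named in the text were chosen after their values were seen.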

Additional observations from a re-analysis of the deposited data

How the results depend on the processing

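Directions of the 7 genes were the same under all 15 alternatives, and the scaling that moved the median log2 fold change of all genes farthest, by library size alone, shifted it by -0.0268. By DESeq2, Mlxipl passed with a log2 fold change of -0.45, so that 1 of the 7 was called lower in place of 0, and 1 gene of the thioredoxin system passed as higher and 1 glycolytic gene as lower in place of 0 each. Among regulators of Txnip, 3 passed as higher in place of 2. With limma on log2(FPKM + 0.1), and with the replicate block, 0 hexose transport genes passed as higher in place of 1. Samples with the same number did not deviate together (correlations across genes of 0.0141, 0.141 and -0.0721), so the numbers were not treated as pairs. The block left 178 genes (1.4%) called in place of 335 and changed no call among the 7, with a log2 fold change of 0.63 for Arrdc4 (FDR 0.0478).

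Leaving out 1 sample gave log2 fold changes of 0.57 to 0.66 for Arrdc4, -0.29 to -0.22 for Txnip, -0.50 to -0.35 for Mlxipl, 0.18 to 0.26 for Mlx, 0.061 to 0.26 for Tkt, -0.39 to -0.048 for Mlxip and -0.45 to -0.22 for Pklr. The call of Arrdc4 was lost without control 2 and without epinephrine 1, 2 or 3, and among these fits Txnip, Mlxipl, Mlx and Tkt were called only without control 1, and the cause was not tested. The number of the 7 called was 0 to 3 as higher and 0 to 2 as lower. The number called as higher was 0 to 5 among other ChREBP targets, 0 to 4 in glycolysis and among regulators of Txnip, 0 to 2 in hexose transport, and 0 to 1 in the MLX and MAX network, the alpha-arrestins and the thioredoxin system. The number called as lower was 0 to 4 among other ChREBP targets, in the thioredoxin system and among regulators of Txnip, 0 to 3 in hexose transport, 0 to 2 in glycolysis and the inflammasome, and 0 to 1 in the MLX and MAX network, the pentose phosphate pathway and the 14-3-3 proteins. The upper end of each of these ranges came from the fit without control 1, where 12.1% of all genes passed as higher and 9.46% as lower. Pklr, at 116 to 195 counts a sample, has the least depth of the 7.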
